A study of Mus musculus with 37 samples.

Results

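Ribosomal proteins are the protein parts of the cytosolic ribosome. The genes described here were the 83 rows of the count table, of 35542 genes in all, whose symbol follows the naming of these proteins (Rpl or Rps with a number and, in some, a further letter or digit, Rplp0, Rplp1, Rplp2, and Rpsa), with rows named as pseudogenes left out. By symbol, 51 were counted with the large and 32 with the small subunit, and 4 (Rps4x, Rpl10, Rpl36a and Rpl39) lie on chromosome X. The ribosome is built in the nucleolus from ribosomal RNA and these proteins in near-equal amounts, so their genes are transcribed at high levels in growing embryonic tissue. Their mRNAs typically begin with a run of pyrimidines, the 5′ terminal oligopyrimidine or TOP motif, through which translation follows growth signals. Mutations in single members can have localised effects: loss of a copy of Rpl38 shortens the tail and alters the axial skeleton of the mouse, and Rpl38 acts in the translation of some Hox mRNAs.

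Tailbud tissue of 37 mouse embryos was profiled by RNA-seq, with 1 library per embryo, to learn how loss of maternal SMCHD1, which keeps some genes silent through chromatin, affects the tissue that will form the vertebrae. All embryos were C57BL/6/Cast F1 at E8-8.5 and carried 6 to 11 somites, the paired segments of the trunk whose number dates an embryo. The 21 Smchd1wt embryos (labelled Smchd1[fl/+]) were controls, and the 16 Smchd1matΔ embryos (Smchd1[del/+]) came from mothers in which the MMTV-Cre transgene had deleted Smchd1 in the oocyte, so that both the oocyte supply and the maternal allele were missing while the paternal allele stayed intact. There were 4 and 4 embryos (Smchd1wt and Smchd1matΔ) at 6 somites, 4 and 3 at 7, 3 and 2 at 8, 3 and 2 at 9, 4 and 3 at 10, and 3 and 2 at 11 somites, and 24 were female, including all with 6 somites.

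Depth ran from 916444 to 80579115 counts per library. Smchd1 itself, on chromosome 17, was at 105 to 202 CPM (counts scaled to a library of 1000000, TMM-normalised) in Smchd1wt and at 64.6 to 113 CPM in Smchd1matΔ embryos, a log2 change of -0.74 ± 0.07 (SE) with an edgeR adjusted p of 1.27e-07. All 10 markers of tailbud and presomitic mesoderm passed the filter on low counts, and their summed level was 834 to 2055 CPM in Smchd1wt and 1364 to 2038 CPM in Smchd1matΔ embryos. Markers of formed somites were low, with 1 of 5 past the filter and 1 at 0 in every library. Their summed level was 1.57 to 10.2 CPM in Smchd1wt and 0 to 50.3 CPM in Smchd1matΔ embryos. It was highest in Smchd1matΔ replicates 2 and 1 at 6 somites, at 50.3 and 15.2 CPM. Markers of primitive erythroid cells summed to between 10.1 and 4189 CPM and those of visceral endoderm to between 8.15 and 4535 CPM per library, with a wide range in both genotypes, and their part in the results was not tested. In bulk tissue, fewer cells of a type and less RNA per cell cannot be told apart.

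Promoter windows show the bases around the annotated starts of these genes. RefSeq promoter windows (GRCm38.p6) were at hand for 63 of the 83 members. The 8 stretches printed here belong to genes that recur in the results, and each runs from 20 bases before to 10 bases from the annotated start, 5′ to 3′ on the strand of the gene, with runs of at least 8 pyrimidines in capitals.
Rpl38, chr11:114668560-114668589, plus strand: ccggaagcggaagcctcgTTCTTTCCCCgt
Rpl27a, chr7:109519175-109519204, plus strand: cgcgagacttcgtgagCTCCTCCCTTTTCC
Rps6, chr4:86857358-86857387, minus strand: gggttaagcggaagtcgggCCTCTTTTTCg
Rps15a, chr7:118116138-118116167, minus strand: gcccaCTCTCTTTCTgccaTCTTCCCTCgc
Rps10, chr17:27635235-27635264, minus strand: acgctgcgccgcgcacgCCCCTTCCTTTCC
Rpl13, chr8:123102330-123102359, plus strand: gtcaCTTCCCTTTCgcctgattttgattgg
Rpl4, chr9:64173367-64173396, plus strand: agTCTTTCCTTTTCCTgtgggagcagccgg
Rps28, chr17:33824553-33824582, minus strand: tcctgggtaccgcgtgcggtctcgcgagag
In the first 5 of these stretches a pyrimidine run spans the annotated start, in Rpl13 and Rpl4 it lies a few bases before it, and Rps28 holds none. Of the 63 members, 26 held such a run in the same stretch, so the 8 printed here hold runs more often than the family. Rps2, which also recurs in the results, is not printed, and its stretch holds none. Within 25 bases either side of the start, 33 of 63 members (52.4%) held a run of at least 8 pyrimidines on the sense strand, against 22.3% of the 27025 genes in the table. On the other strand the order was the opposite, with 5 of 63 members (7.94%) against 24.4% of all genes. The 7-base motif CCGGAAG, searched on both strands over the whole window of 300 bases, was found in 26 of 63 members (41.3%) and in 9.93% of all genes. TATAAA was found in 7 members (11.1%) and in 15.7% of all genes. These counts describe letters in windows whose annotated start can lie away from the start used in this tissue.

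In the tailbud 80 of the 83 members passed the filter on low counts. The remaining 3 were the paralogues Rpl3l, Rpl10l and Rpl39l, known from muscle and testis, which collected 19, 60 and 65 counts over all 37 libraries and were at 0 counts in 30, 23 and 21 libraries. A count of 0 allows a level of up to 0.0367 CPM in the deepest and 3.31 CPM in the shallowest library, for counting error only. Rpl10l had 17 of its counts in the Smchd1wt embryos with 6 somites, where 1 library held 11 of them, and no count in the Smchd1wt embryos with 9 or 11 somites. Levels between genes are given as CPM per kilobase of the principal transcript, as mean ± SD over the 37 libraries. Rplp1, an acidic protein of the ribosomal stalk, was highest at 2063 ± 402 CPM per kilobase. Rpl4 followed at 1462 ± 124, Rpl13a at 1458 ± 383, Rps27 at 1422 ± 425 and Rps21 at 1347 ± 276 CPM per kilobase, and these neighbours in the order lay closer together than their spread. The other stalk proteins, Rplp0 and Rplp2, were at 1197 ± 119 and 585 ± 85.9 CPM per kilobase.

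At the low end of the expressed members stood Rpl21 with 26.9 ± 4.33, Rpl29 with 52.9 ± 6.91, Rpl17 with 88.8 ± 16.3, Rpl7l1 with 110 ± 9.87 and Rps15a with 146 ± 18.9 CPM per kilobase. Many members have processed pseudogenes, and these levels are to be read with that in view. A median of 43.6% of the 75-base windows of a member's transcript also occurred in transcripts of other genes, and for 36 members it was over 50%. In Rpl21 such windows were shared with 61 other genes and in Rpl29 with 45. They made up 22.05% of the windows of Rpl21 and 57.4% of those of Rpl29. For Rpl17 the share was 43.6%, for Rpl7l1 3.87% and for Rps15a 4.13%. Across the 80 expressed members, this share had a Spearman correlation of 0.05 with the level per kilobase. How the counting treated reads that fit several places is not given in the sources used here. The length also matters: the principal transcript of Rps15a is 5179 bases long, the longest of the family, while the median member has 886 bases. With the summed exon length of the gene in place of the principal transcript, the order of the 80 expressed members had a Spearman correlation of 0.79 with the first order (across genes, which share libraries), and Rplp1 remained the highest. Rpl4 stayed at rank 2, while Rpl13a moved from rank 3 to 9, Rps27 from 4 to 15 and Rps21 from 5 to 10.

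Paralogues were compared per kilobase in each library with the canonical member that each resembles. Rpl22l1 was above Rpl22 in every library, at 174% to 327% of its level (median 239%). That order rests on the lengths of the principal transcripts, 552 bases for Rpl22l1 and 2051 for Rpl22. Without division by length, the median was 415 CPM for Rpl22l1 and 640 CPM for Rpl22. With the summed exon length, the means were 220 and 228 CPM per kilobase. Of their 75-base windows, 58.6% (Rpl22l1) and 1.42% (Rpl22) also occurred in transcripts of other genes. Rps27l was at 23.2% to 37.4% of Rps27, and Rpl7l1, a nucleolar relative, at 8.79% to 12.7% of Rpl7. Rpl3l, Rpl10l and Rpl39l did not exceed 0.159%, 0.281% and 0.1% of Rpl3, Rpl10 and Rpl39. Among members with roles outside protein synthesis or in disease, Rpl11 was at 843 ± 227 and Rpl5 at 473 ± 53.6 CPM per kilobase, the proteins that bind the 5S ribosomal RNA and can restrain Mdm2. Rps19, the gene most often affected in Diamond-Blackfan anaemia, was at 606 ± 122, Rps6, the target of the S6 kinases, at 531 ± 59.3, and Rpsa, also described as a laminin receptor, at 364 ± 52.0 CPM per kilobase. Rpl24, mutated in the Belly spot and tail mouse, was at 624 ± 81.7 and Rpl38 at 490 ± 89.8 CPM per kilobase. On chromosome X, Rps4x was at 987 ± 86.8, Rpl36a at 781 ± 153, Rpl39 at 757 ± 229 and Rpl10 at 472 ± 44.3 CPM per kilobase.

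The family took between 3.46% and 6.70% of the counts of a library, with a median of 4.69% over the 37 libraries. The lowest share, 3.46% (Wilson 95% interval 3.44% to 3.47%), was found in Smchd1wt replicate 2 at 8 somites. The highest, 6.70% (6.68% to 6.72%), was found in Smchd1wt replicate 1 at 10 somites, and Smchd1wt replicate 2 at 7 somites followed with 6.14% (6.12% to 6.17%). Both ends of the range thus came from control embryos, and the ratio of the highest to the lowest share was 1.94. Intervals cover counting error only, and the spread between embryos was far wider than they are.

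**Figure D1:**
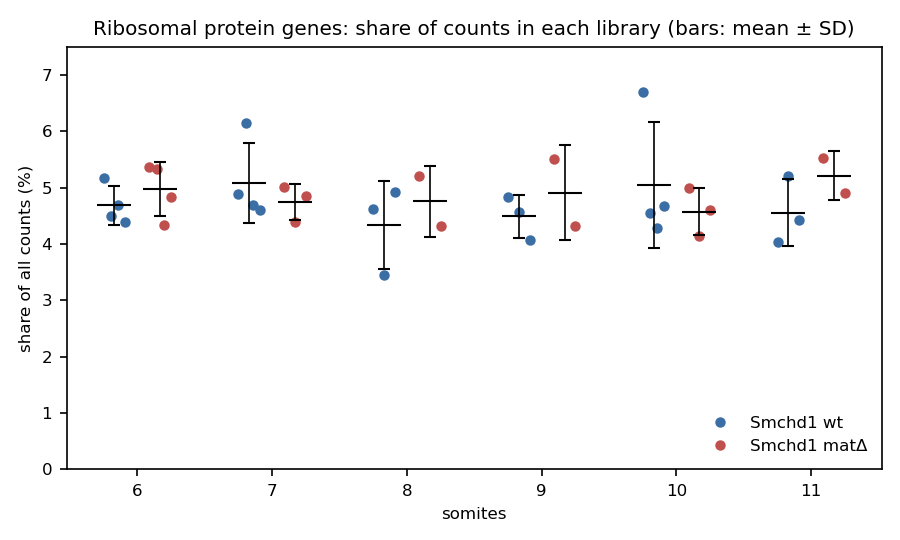
Share of all counts that fell on the 83 ribosomal protein genes (vertical axis, percent) by somite number, with 1 point per library, blue for Smchd1wt and red for Smchd1matΔ, and bars for mean ± SD. The genotypes overlap at every stage, and the highest (6.70%) and lowest (3.46%) points are both Smchd1wt.

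At 6 somites the share was 5.18%, 4.49%, 4.69% and 4.38% in Smchd1wt and 5.37%, 5.34%, 4.34% and 4.84% in Smchd1matΔ embryos. At 7 somites it was 4.88%, 6.14%, 4.70% and 4.61% against 5.01%, 4.39% and 4.85%. The genotypes overlapped at both stages. At 8 somites the values were 4.63%, 3.46% and 4.93% against 5.20% and 4.31%. At 9 somites they were 4.83%, 4.57% and 4.07% against 5.51% and 4.31%. Here too the genotypes overlapped, with 1 Smchd1matΔ embryo above the Smchd1wt range at each stage. At 10 somites the shares were 6.70%, 4.55%, 4.28% and 4.67% against 4.99%, 4.14% and 4.603%, and at 11 somites 4.04%, 5.20% and 4.43% against 5.52% and 4.91%. Over all stages the mean was 4.73% ± 0.688 (SD, n = 21) in Smchd1wt and 4.85% ± 0.461 (SD, n = 16) in Smchd1matΔ embryos, a difference of 0.118 percentage points that is smaller than either SD. It was 0.0545 points without Smchd1wt replicate 2 at 8 somites and 0.217 points without Smchd1wt replicate 1 at 10 somites. The group means followed no steady order with somite number in either genotype. In Smchd1wt embryos they were 4.69%, 5.08%, 4.34%, 4.49%, 5.05% and 4.56% from 6 to 11 somites.

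The members moved together from library to library. For each of the 80 expressed members the log2 CPM of a library was set against the member's mean over all libraries, and the median of these deviations over the family was taken per library. It ran from -0.47 in Smchd1wt replicate 2 at 8 somites to 0.44 in Smchd1wt replicate 1 at 10 somites. In 5 libraries more than 70 of the 80 members were above their own mean, and in 9 libraries fewer than 10 were. In Smchd1matΔ replicate 1 at 11 somites all 80 were above it, and in Smchd1matΔ replicate 2 at 7 somites 1 was. The median correlation between a pair of members across the 37 libraries was 0.66 (Pearson, 3160 pairs, range -0.04 to 0.97), and the first principal component, on which all 80 members had the same sign, held 66.9% of their variance. Normalised CPM values of a library share its scaling factor, so part of any such correlation is common to all genes of a library.

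**Figure D2:**
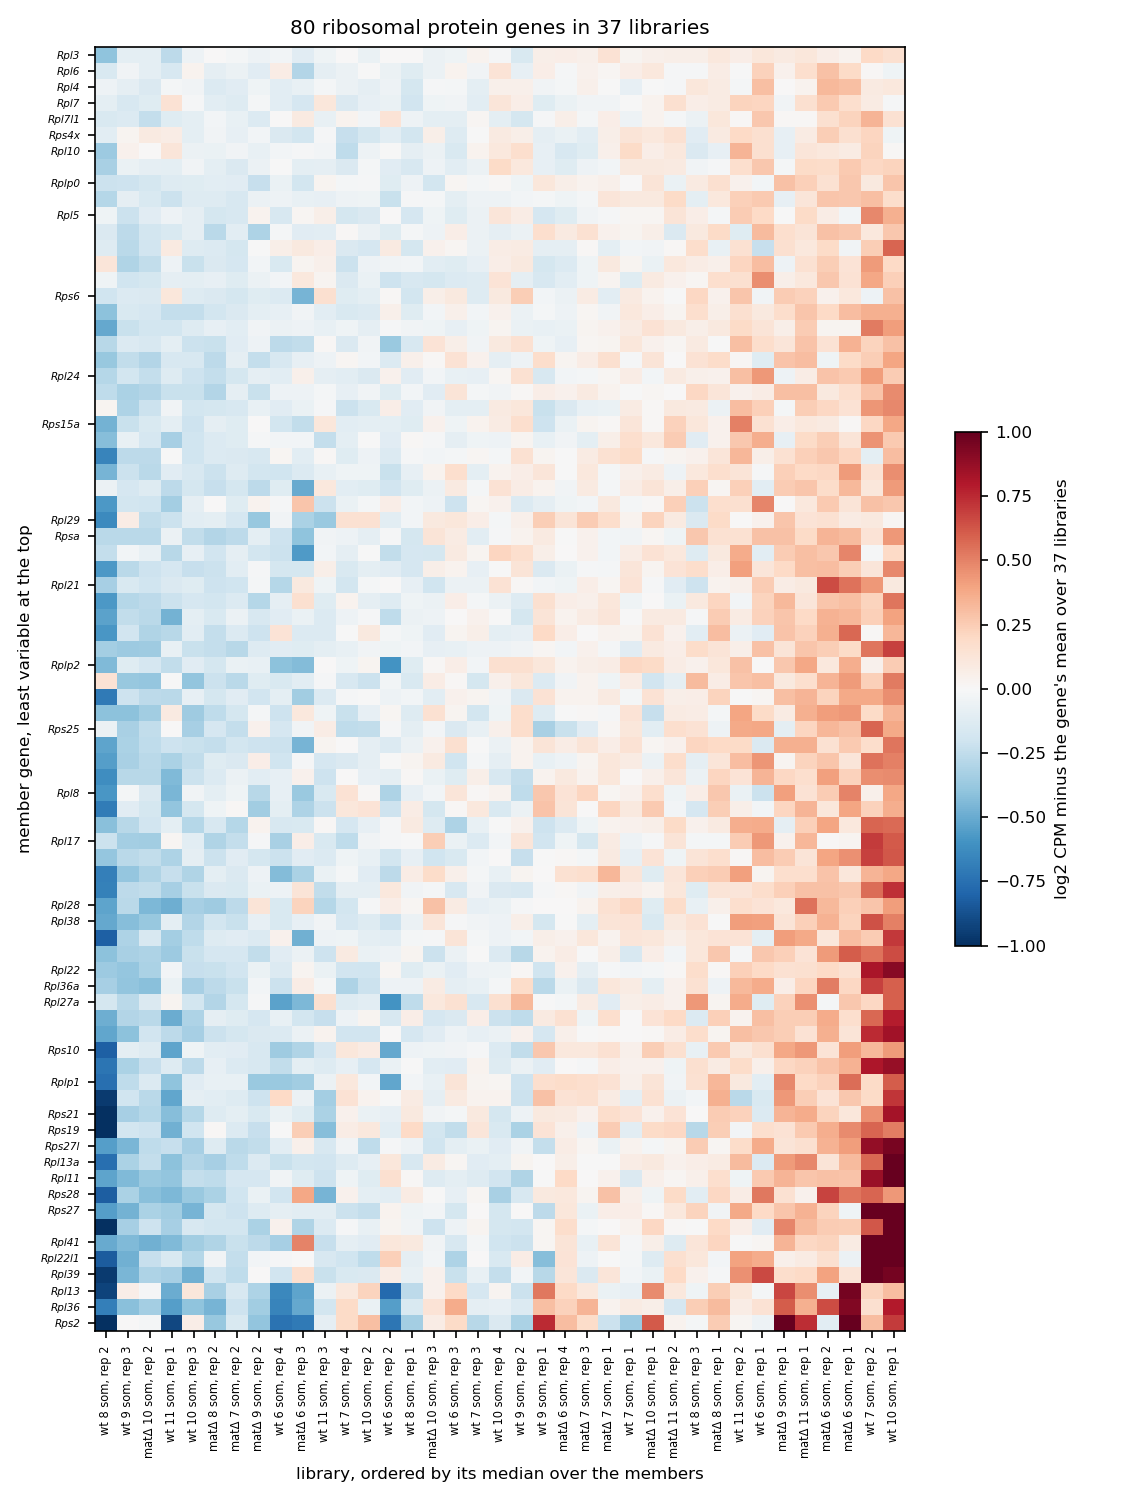
Deviation of log2 CPM from the gene's own mean (colour, red above and blue below) for 80 members (rows, least variable at the top, with genes discussed in the text labelled) in 37 libraries (columns, ordered by their median over the family). Whole columns are red or blue, with the strongest colours in the rows at the bottom, from Rpl41 to Rps2.

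The size of this movement differed between members. The SD of log2 CPM over the 37 libraries had a median of 0.22 over the members and of 0.27 over the 14733 genes that passed the filter. The steadiest were Rpl3 (0.11), Rpl6 (0.11), Rpl4 (0.12), Rpl7 (0.12) and Rpl7l1 (0.12). Rpl3, at 780 to 1183 CPM, differed 1.52-fold between its extreme libraries. The most variable were Rps2 (0.51), Rpl36 (0.40), Rpl13 (0.38), Rpl39 (0.38) and Rpl22l1 (0.37). Rps2 ranged from 165 to 776 CPM, a 4.71-fold span. Members with short transcripts varied more: the median SD was 0.28 for the 11 members under 500 bases, 0.22 for the 40 of 500 to 1000 bases and 0.21 for the 29 longer ones. Across the 80 members the SD had a Spearman correlation of -0.38 with transcript length, 0.33 with GC content and -0.06 with the share of windows found in other genes.

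A second, smaller pattern divided the members by base composition. The second principal component held 12.7% of their variance. At its upper end stood Rps2, Rpl13, Rpl36, Rpl8, Rplp1 and Rps10, with a GC content of 55.9% to 60.8%. At its lower end stood Rpl22l1, Rpl39, Rps25, Rpl36a, Rps27 and Rpl17, with 40.6% to 50.9%. In Smchd1matΔ replicate 1 at 6 somites Rps2 was at 776 CPM, its highest level, while Rpl22l1 had its highest level, 1015 CPM, in Smchd1wt replicate 2 at 7 somites. The loadings had a Spearman correlation of 0.54 with GC content and 0.02 with transcript length across the 80 members. The libraries were also scored on other genes, as the median deviation of the 1310 non-member genes with the highest GC content minus that of the 1310 with the lowest. This GC contrast ran from -0.64 in Smchd1wt replicate 2 at 8 somites to 0.63 in Smchd1matΔ replicate 1 at 6 somites, and it had the sign of the second component's score in 29 of 37 libraries.

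The deviation of the family was set beside that of other short transcripts. For the 728 other protein-coding genes with a principal transcript under 1000 bases the median deviation had the sign of the family's in 33 of 37 libraries. It was -0.31 where the family was at -0.47, 0.49 where the family was at 0.44, and 0.30 in Smchd1wt replicate 2 at 7 somites, where the family was at 0.31. For the 8030 genes of middle length the sign was the same in 27 and for the 4335 genes with transcripts of 4000 bases or more in 10 of 37 libraries. Nuclear subunits of oxidative phosphorylation, whose median transcript has 751 bases, took the family's sign in 34 libraries, over a range of -0.44 to 0.51. Lists of longer transcripts also took it often: mitochondrial ribosomal proteins (median 1302 bases) in 32 and proteasome subunits (1540 bases) in 33 libraries, with narrower ranges of -0.24 to 0.33 and -0.15 to 0.20. Translation factors with TOP mRNAs (24 genes, median 1891 bases, among them Eef1a1 and Eef2) took it in 31 libraries, over -0.13 to 0.15. Genes of ribosome biogenesis, the nucleolar factors that assemble the ribosome (median 2544 bases), took it in 24 of 37, over -0.13 to 0.14. The level of the family thus had the sign of other short transcripts, and of these lists of longer transcripts, in most libraries, and the part of library preparation or RNA quality in this was not tested.

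**Figure D3:**
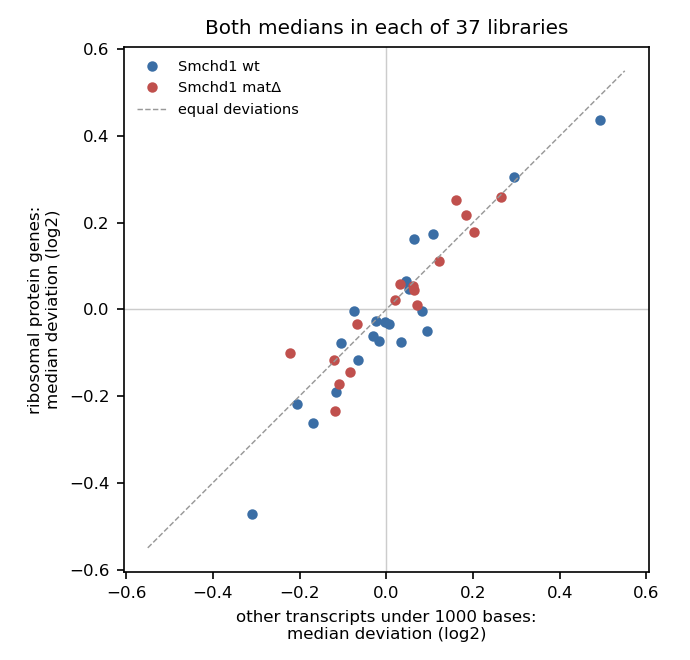
Median deviation (log2) of the 80 ribosomal protein genes (vertical axis) against that of 728 other genes with transcripts under 1000 bases (horizontal axis), with 1 point per library in the colours of the genotypes and a dashed line of equal values. Most points lie along the line, from -0.31 and -0.47 at the lower left to 0.49 and 0.44 at the upper right.

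No member was called between the genotypes. Over all stages edgeR's quasi-likelihood test called 0 of 80 members at an adjusted p under 0.05, with 0.0136% of the 14733 genes tested called, and DESeq2 called 0 as well. An unadjusted p under 0.05 was found for 0 members and for 5.66% of all genes. That 0 was not stable: it was 0 to 6 leaving out 1 library, with 6 without Smchd1wt replicate 1 at 10 somites, and 0 to 10 over the other alternatives. The share of all genes at such a p was not determined with a library left out. The median log2 change of the members was 0.04, with 59 of 80 above 0, against 0.00 and 51.1% of all genes. It was 0.02 without Smchd1wt replicate 1 at 11 somites and 0.06 without Smchd1wt replicate 1 at 10 somites. The smallest p-values were those of Rps2, Rps10 and Rpl13. Rps2, a small-subunit protein near the mRNA entry, was at 165, 326 and 567 CPM (lowest, median and highest) in Smchd1wt and at 206, 350 and 776 CPM in Smchd1matΔ embryos. These ranges overlap over most of their width, and the log2 change was 0.31 ± 0.15 (SE, 95% interval -0.00 to 0.63, edgeR adjusted p = 0.864). Rps10 was at 208, 356 and 494 CPM against 298, 399 and 495 CPM, a log2 change of 0.17 ± 0.09 (adjusted p = 0.864), and 20.6% of its exon bases lie in another counted gene. For Rpl13 the levels were 134, 252 and 368 CPM against 178, 269 and 496 CPM, with a log2 change of 0.22 ± 0.12 (adjusted p = 0.865) that was 0.14 without Smchd1matΔ replicate 1 at 6 somites.

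**Figure D4:**
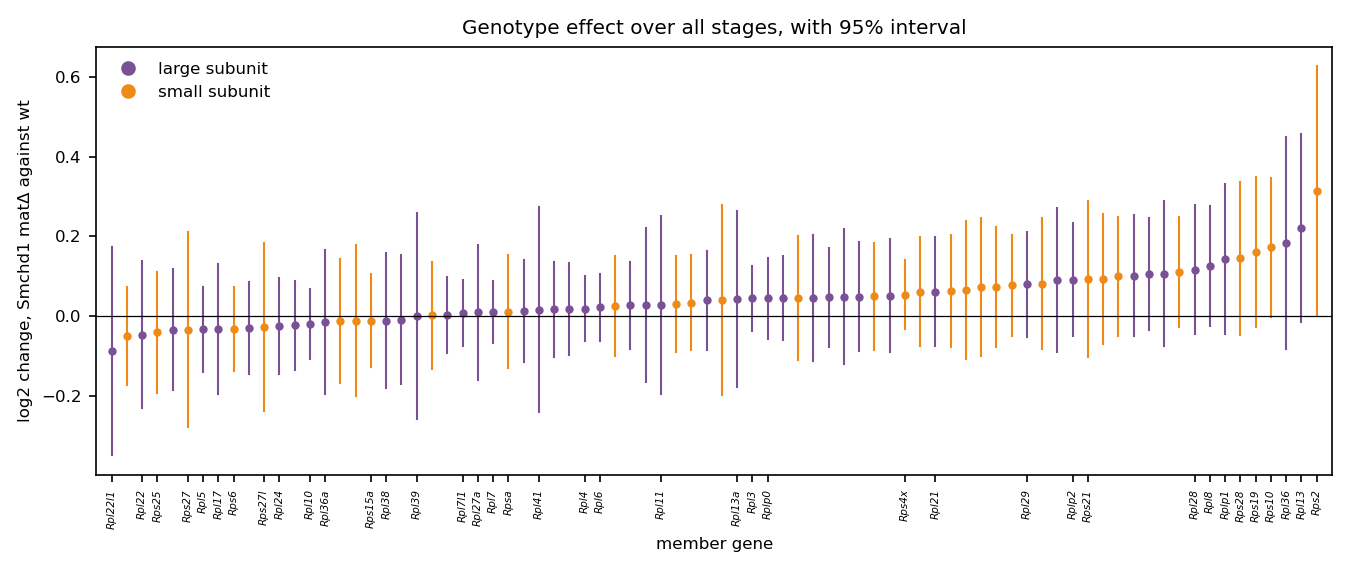
Log2 change of Smchd1matΔ against Smchd1wt over all stages (vertical axis) with its 95% interval for 80 ribosomal protein genes, ordered by size, with genes discussed in the text labelled, purple for the large and orange for the small subunit. Every interval includes 0, from Rpl22l1 (-0.09) at the left to Rps2 (0.31) at the right.

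The intervals bound how far the genotypes can differ. Of the 80 members, 79 had a 95% interval that excluded a change of 1.5-fold in either direction, the exception being Rps2. Rpl38 was at 154, 213 and 342 CPM in Smchd1wt and at 169, 220 and 281 CPM in Smchd1matΔ embryos, and its log2 change was -0.01 (95% interval -0.18 to 0.16). Rpl24 had a log2 change of -0.03 (-0.15 to 0.09), Rpl5 of -0.03 (-0.14 to 0.07), Rpl11 of 0.03 (-0.20 to 0.25) and Rps6 of -0.03 (-0.14 to 0.07). For Rps19 it was 0.16 (-0.03 to 0.35). The median was 0.03 over the large and 0.05 over the small subunit, and -0.01 over the 4 members on chromosome X.

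The direction of the genotype effect followed GC content in the members and in other genes alike. With the members ordered by GC content and divided into 4 sets of 20, the median log2 change was -0.01, 0.01, 0.05 and 0.09 from the lowest to the highest set, with 8, 13, 20 and 18 members above 0. In the other protein-coding genes the medians were -0.05, -0.02, 0.02 and 0.07. With the GC contrast of each library as a covariate, a fit added after seeing the data, the median of the members was -0.02 with 27 of 80 above 0, and 0 were called. Without the 2 Smchd1matΔ libraries of 6 somites with the most ribosomal RNA counts (2.77% and 1.82% of counts, against 0.176% to 1.28% elsewhere), the median was -0.00. With the deviation of other short transcripts as a covariate, also added after seeing the data, the median SE of a member fell from 0.07 to 0.04, and still 0 of 80 were called, with 8 at an unadjusted p under 0.05 where 7.09% of all genes had one.

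The study divides its stages into an early and a late window. At 6 to 8 somites 0 of 80 members were called, with 0.0069% of 14495 genes called, and 0 had an unadjusted p under 0.05 where 8.13% of all genes had one. At 9 to 11 somites 0 were called, with 0.00671% of 14909 genes called, and again 0 had an unadjusted p under 0.05, against 1.75% of all genes. DESeq2 called 0 members in either window. At 6 somites Rplp1 was at 939, 706, 1103 and 783 CPM in Smchd1wt and at 1490, 1185, 793 and 1145 CPM in Smchd1matΔ embryos, which overlap. It had the smallest p of the members at 6 to 8 somites, with a log2 change of 0.19 ± 0.12 (edgeR adjusted p = 0.695), which was 0.12 without Smchd1matΔ replicate 1 at 6 somites. At 9 to 11 somites it belonged to Rpl28, with 0.19 ± 0.14 (edgeR adjusted p = 0.9997), which was 0.10 without Smchd1matΔ replicate 1 at 11 somites and 0.29 without Smchd1wt replicate 1 at 10 somites. The median log2 change was 0.02 in the early and 0.01 in the late window. Single libraries set both. The early median was -0.01 without Smchd1wt replicate 4 at 7 somites and 0.06 without Smchd1wt replicate 2 at 7 somites, and with the GC contrast as a covariate it was -0.05 with 13 of 80 members above 0. The late median was 0.11 without Smchd1wt replicate 1 at 10 somites, with 97.5% of the members above 0 and 12 of 80 at an unadjusted p under 0.05. In that fit 0 members were called. The share of all genes at such a p was not determined there, and the 1.75% given above is from the fit with every library of the window. Without Smchd1matΔ replicate 1 at 9 somites the late median was -0.03. The difference between the windows was called for 0 members and for 0% of 14733 genes, and 0 members had an unadjusted p under 0.05, against 3.36% of all genes, with 0 called by DESeq2.

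Somite number moved many genes, but no ribosomal protein gene passed the threshold. In the 21 Smchd1wt embryos 0 of 80 members had a slope past the threshold, where 6.61% of 15667 genes did, and 1 member had an unadjusted p under 0.05, where 21.4% of all genes did. In the 16 Smchd1matΔ embryos the counts were 0, against 2.95% of 16222 genes, and 1, against 17.1%. The counts at an unadjusted p were not stable. Leaving out 1 library they were 0 to 5 in Smchd1wt and 1 to 3 in Smchd1matΔ embryos, and over the other alternatives 1 to 11 and 0 to 15. With the short-transcript covariate they were 6 (against 24.8% of all genes) and 14 (19.9%), and with the GC contrast 3 (24.3%) and 15 (18.6%). DESeq2 called 0 members in either genotype. The median slope of the members was -0.0017 log2 per somite in Smchd1wt and 0.0016 in Smchd1matΔ embryos. Its sign turned with the library left out, over -0.02 to 0.01 and -0.01 to 0.01, and without the 2 Smchd1matΔ libraries richest in ribosomal RNA, both of 6 somites, 90% of the Smchd1matΔ slopes were above 0. All 80 slopes had 95% intervals within 0.19 log2 per somite of 0, and 50 of 80 members had the same sign in both genotypes, against 72.3% of all genes.

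Rpl27a, a protein of the large subunit, had the highest slope in both genotypes, and neither slope passed the threshold. In Smchd1wt embryos it was at 481, 346, 582 and 361 CPM at 6 somites and at 535, 676 and 584 CPM at 11 somites. In Smchd1matΔ embryos it was at 633, 516, 383 and 518 CPM at 6 and at 719 and 538 CPM at 11 somites. The stages overlap in both genotypes. Its slope was 0.08 ± 0.03 log2 per somite in Smchd1wt (unadjusted p = 0.0288, edgeR adjusted p = 0.173) and 0.05 ± 0.03 in Smchd1matΔ embryos (adjusted p = 0.334), where it was 0.03 without replicate 1 at 11 somites. With the deviation of other short transcripts as a covariate, Rpl27a was called in both genotypes, at 0.08 ± 0.03 (adjusted p = 0.0466) and 0.06 ± 0.02 (adjusted p = 0.0391), as the only member in each, where 10.2% and 5.02% of all genes were called. That fit was added after seeing the data. With the GC contrast as a covariate, it was called in Smchd1matΔ embryos (0.08 ± 0.02, edgeR adjusted p = 0.0281). Rps2, Rpl13, Rps6, Rps18 and Rplp2 were called with it, all with positive slopes. That made 6 of 80 members, where 3.83% of all genes were called. In Smchd1wt embryos no member was called with this covariate, where 9.42% of all genes were.

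Rps28, a small protein of the 40S subunit, had the most negative slope in both genotypes. At 6 somites it was at 244, 157, 160 and 148 CPM in Smchd1wt and at 245, 270, 222 and 182 CPM in Smchd1matΔ embryos. At 11 somites it was at 124, 178 and 122 CPM against 174 and 193 CPM. The slopes were -0.06 ± 0.04 (edgeR adjusted p = 0.309) and -0.06 ± 0.03 log2 per somite (adjusted p = 0.328), and neither passed the threshold. Without Smchd1wt replicate 1 at 6 somites the Smchd1wt slope was -0.04. In Smchd1wt embryos Rps28 was called, at -0.08 ± 0.03 (edgeR adjusted p = 0.0496), once the libraries with the lowest and highest share of ribosomal protein counts were left out. It was the only member called there, and this alternative was chosen after seeing the data. With only the library of highest share left out (Smchd1wt replicate 1 at 10 somites), slopes were called for 1971 genes, against 1036 as reported, and for 0 members. Rps6 had slopes of 0.04 ± 0.02 in both genotypes (adjusted p = 0.259 and 0.369), and Rps15a of 0.03 ± 0.03 and 0.04 ± 0.02 (adjusted p = 0.557 and 0.211). Rpl38 had slopes of -0.00 ± 0.03 and 0.00 ± 0.03 log2 per somite, so its level showed no trend over these stages beyond an interval of -0.08 to 0.07 in Smchd1wt embryos.

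**Figure D5:**
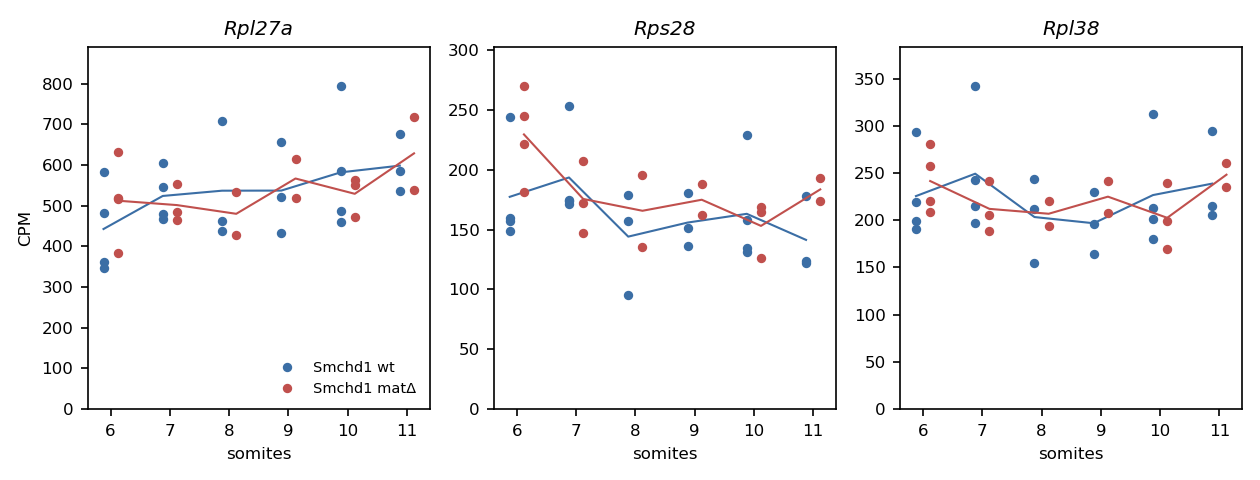
CPM of Rpl27a, Rps28 and Rpl38 (vertical axes, from 0) by somite number, with 1 point per library and lines through the stage means, blue for Smchd1wt and red for Smchd1matΔ. Rpl27a has means of 443 (Smchd1wt) and 512 CPM (Smchd1matΔ) at 6 somites and of 598 and 628 CPM at 11 somites, and the points of these stages overlap.

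The slopes did not differ between genotypes for any member by test: 0 of 80 were called, with 0% of 14733 genes called, 0 had an unadjusted p under 0.05, against 3.67% of all genes, and DESeq2 called 0. The smallest p belonged to Rpl21, with a difference of -0.07 ± 0.04 log2 per somite (edgeR adjusted p = 0.9998), which was -0.04 without Smchd1matΔ replicate 2 at 6 somites. For Rpl27a the difference was -0.03 ± 0.05 and for Rps28 -0.02 ± 0.05 log2 per somite. These intervals, -0.13 to 0.06 and -0.13 to 0.09, are wide enough to hold differences as large as the slopes themselves.

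Sex was compared over all stages, males against females. Here 0 of 80 members were called, with 0.217% of 14733 genes called, and 0 had an unadjusted p under 0.05, against 3.26% of all genes, and DESeq2 called 0. The 4 members on chromosome X had log2 changes of 0.03 ± 0.05 (Rps4x), 0.03 ± 0.05 (Rpl10), 0.07 ± 0.11 (Rpl36a) and 0.09 ± 0.16 (Rpl39), all within their error of 0. The median over the members was 0.03, with 60 of 80 above 0. That direction rested on 1 embryo, since without Smchd1wt replicate 1 at 10 somites, a male, 23.8% of the members were above 0. In females the share of counts was 4.74% ± 0.398 (SD, n = 24) and in males 4.88% ± 0.864 (SD, n = 13), so that the males spread more widely around nearly the same mean.

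Other parts of the translation machinery were read in the same fits. No gene of the lists of ribosome biogenesis (60 tested), TOP translation factors (24), mitochondrial ribosomal proteins (76), oxidative phosphorylation (74) and proteasome (35) was called between genotypes over all stages, where 0.0136% of all genes were. In the same order 2, 1, 0, 4 and 1 genes had an unadjusted p under 0.05, which 5.66% of all genes had. On somite number the biogenesis factors had a median slope of -0.02 log2 per somite in Smchd1wt, with 13 of 60 above 0 where 48.5% of all genes were, and of -0.03 in Smchd1matΔ embryos, with 10 of 60 above 0 where 51.8% of all genes were. The called genes numbered 3 of 60 in Smchd1wt and 2 of 60 in Smchd1matΔ embryos, shares near the 6.61% and 2.95% of all genes. Nat10, an RNA acetyltransferase of the nucleolus, fell in both genotypes, by 0.07 ± 0.02 (edgeR adjusted p = 0.0112) and 0.10 ± 0.02 log2 per somite (adjusted p = 0.0101). Nop2 fell in Smchd1wt embryos by 0.05 ± 0.02 (adjusted p = 0.0316) and Nolc1 in Smchd1matΔ embryos by 0.07 ± 0.02 (adjusted p = 0.0402), and Mycn, a transcription factor that drives growth genes, rose in Smchd1wt embryos by 0.07 ± 0.02 (adjusted p = 0.0308). The ribosomal proteins themselves had 33 of 80 and 43 of 80 slopes above 0 in the same fits. Between sexes the TOP factor Eif2s3x, an X-linked gene with a Y-linked homologue, was lower in males, with a log2 change of -0.42 ± 0.05 (adjusted p = 9.33e-07), and it was the only gene of these lists called for sex.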

How the data were processed

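RNA was extracted by the authors from the tailbud of 37 embryos, and poly(A) libraries were made with a stranded or a non-stranded TruSeq kit, with size selection and 75-base single-end reads. The kit of each library is not given in the sources used here. By the labels and methods, reads were trimmed with Trim Galore 0.4.4, mapped to GRCm38.p6 with HISAT2 2.0.5 and quantified in SeqMonk. The values used were the authors' deposited counts of reads for each gene (35591 rows, of which 49 with a repeated identifier were dropped). The deposited log2 RPKM values of Hox genes and the authors' list of called genes (p-values and fold changes) were not used. Some members, among them Rpl5, Rpl13a, Rpl24, Rps10 and Rps25, share over 10% of their exon bases with another counted gene, and their values are uncertain where strand was not used.

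Counts were tested with edgeR 4.0.16 (R 4.3.3) by the quasi-likelihood test after filterByExpr (minimum count 10) and TMM, two-sided, with Benjamini-Hochberg adjustment over all genes and a threshold of 0.05. Genotype, its difference between windows and sex were tested in models with stages as levels plus genotype and sex terms, and slopes with somite number as a number and sex. Errors are SE of the fit and intervals are 95%. Log2 CPM used a prior count of 2. Transcript length, GC content and shared windows come from GENCODE M21. The embryos are separate animals, and no pair of libraries of a group agreed within sampling noise (chi-square per degree of freedom 5.12 to 72.3 on genes reaching 20 counts within a pair). Same-numbered embryos of the 2 genotypes were not treated as pairs: of 16 such pairs, 4 had deviations correlated above 0.1. Where a stage held 2 Smchd1matΔ embryos, their correlations were mirror images (0.65 and -0.65 with Smchd1wt replicate 1 at 9 somites). Such values cannot show whether pairs exist.

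The alternatives were DESeq2 1.42.0, other scalings, no filter, a replicate block, other covariates, and leaving out libraries. Genes were named by a rule: the members with the smallest p in each comparison, those with known roles, X-linked members, paralogues, and the highest, lowest, steadiest and most variable. Nat10, Nop2, Nolc1, Mycn and Eif2s3x are the genes of the other lists that were called, apart from Psmd5 (slope 0.04 ± 0.01 in Smchd1wt, adjusted p = 0.0462). Members and lists were chosen with earlier results of these data known. The fits were also run on simulated counts, drawn with the same dispersion for every gene and no movement shared between members. That run therefore cannot show how the fits treat small changes in correlated members.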

Additional observations from a re-analysis of the deposited data

Results flagged for a closer look

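In each group of 4 embryos, the highest or lowest value was set against the others by Dixon's ratio at its 95% critical value for 10 measures in 4 groups, and chance flags about 1 in 20 of such sets. Of 40 sets, 3 held a value far from the rest. The share of ribosomal protein counts in Smchd1wt replicate 1 at 10 somites was 6.70%, while the other 3 embryos of its group were at 4.28% to 4.67%. This library also had the lowest summed tailbud and presomitic mesoderm markers of all 37, 834 CPM against 1646 to 1678 CPM in the rest of its group, with erythroid markers at 3887 CPM (112 to 1658) and visceral endoderm markers at 3556 CPM (125 to 592), and their part in its share was not tested. Rps28 was at 244.2 CPM in Smchd1wt replicate 1 at 6 somites, where the others were at 148 to 160 CPM. In Smchd1wt replicate 2 at 7 somites, a library of 3061180 counts, Rps28 was at 253.7 CPM, where the others were at 171 to 175 CPM. All 3 libraries were also above the mean of the other short transcripts, by 0.49, 0.11 and 0.30 on the log2 scale, and the part of transcript length in these values was not tested.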

How the results depend on the processing

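With another scaling, DESeq2, no filter, a replicate block, another set of covariates or libraries left out, 0 members were called in the genotype, window, slope-difference and sex comparisons, as in the values reported. For the slope in Smchd1wt embryos 1 member was called without a filter and in females only (Rpl10l, with 32 counts in these 21 libraries). With the short-transcript covariate 1 was called (Rpl27a, 0.08), where 10.2% of all genes were, and 1 without the libraries of lowest and highest share (Rps28, -0.08). For the slope in Smchd1matΔ embryos 1 was called with the short-transcript covariate (Rpl27a, 0.06), where 5.02% of all genes were. With the GC contrast 6 were called (Rpl27a at 0.08), where 3.83% of all genes were. Leaving out each library in turn gave 0 to 0 called members in every comparison and a median share of 4.68% to 4.69%. Counted per kilobase, the family took 12.2% of a library instead of 4.69%. Signs turned for Rpl38 between genotypes, from -0.012 to 0.026 without the 2 shallowest libraries, 0.064 in females and 0.0012 without the libraries of extreme share (-0.037 to 0.023 leaving out 1 library), and for Rpl8 at 6 to 8 somites, from 0.13 to -0.0068 with the GC contrast. With the replicate block, a pairing that the labels do not state, the median genotype change was 0.00 with 50% of members above 0, and 0 were called. Over all genes, slopes called in Smchd1wt embryos numbered 878 to 2326 (1036 as reported) and in Smchd1matΔ embryos 188 to 1121 (478). Genes called numbered 0 to 39 (1) between genotypes at 6 to 8 somites, 0 to 1 (1) at 9 to 11 somites, 1 to 3 (2) over all stages, 0 to 39 (0) for the difference in slope, 0 to 2 (0) for the difference between windows and 32 to 44 (32) for sex. The short-transcript, GC and extreme-share alternatives were chosen after seeing the data.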
